A study of Homo sapiens with 6 samples.

Results

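Exonic circular RNAs (circRNAs) that the authors' table places in the exonic class and marks as new were described here in Ishikawa, a cell line from a human endometrial carcinoma. They were chosen by those 2 annotation columns alone, with no read count used. They made up 661 of the 4814 listed circRNAs (13.7%), came from 553 host genes and carried 1849 of 26060 back-splice junction reads (7.10%). The exonic circRNAs that carry a database identifier, called known here, numbered 3642, with 22338 reads from 2007 hosts. The 511 circRNAs of other classes carried the other 1873 reads. The 6 libraries of total RNA came from 3 samples of cells treated with MPA and 3 samples left untreated as control. The labels did not spell out MPA and gave no dose or time. They did not name separate cultures, so each p-value reflects only how far the libraries lie apart, and that spread may be technical.

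An exonic circRNA forms by back-splicing, in which the spliceosome joins the donor at the end of an exon to an acceptor upstream of it, so that the exons between both sites close into a ring with neither cap nor poly(A) tail. The rings lack free ends and are known to outlast the linear messages of their hosts. Base pairing between repeats in the flanking introns is known to favour the reaction, and many genes give several rings by pairing 1 site with several partners. A circRNA is recognised in sequencing by reads that cross its back-splice junction, and a read elsewhere in its exons cannot be told from linear mRNA.

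The junctions of the new exonic circRNAs that the results below turn on are shown first, because the junction is the only stretch that marks each ring. Each line gives the last 20 bases of the ring's last exon in lower case and the first 20 bases of its first exon in capitals, in the sense of the mRNA, read from GENCODE 29 transcripts of the host whose exons give the listed span and length. All 7 lie within coding sequence.
PSME4 exons 5 to 10: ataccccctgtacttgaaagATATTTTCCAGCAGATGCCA
MECOM exons 3 to 9: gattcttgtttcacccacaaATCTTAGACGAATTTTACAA
MECOM exons 4 to 9: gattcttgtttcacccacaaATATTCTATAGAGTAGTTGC
MECOM exons 4 to 7: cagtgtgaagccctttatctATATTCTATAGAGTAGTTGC
MECOM exons 8 to 9: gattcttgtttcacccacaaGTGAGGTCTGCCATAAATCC
PCSK5 exons 30 to 33: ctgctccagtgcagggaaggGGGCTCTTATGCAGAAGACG
PCSK5 exons 30 to 34: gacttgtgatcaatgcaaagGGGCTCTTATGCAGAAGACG
The MECOM rings that end at exon 9 have the same lower-case part, the MECOM rings that start at exon 4 have the same capitals, and both PCSK5 rings have the same capitals: they share a splice site and differ in its partner.

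Junction reads per library ranged from 3740 to 4316 in control and from 4339 to 5454 in MPA, so most single circRNAs rested on a handful of reads. New exonic circRNAs took 7.60%, 6.95% and 6.63% of the reads in the control libraries. They took 6.69%, 7.56% and 7.08% in the MPA libraries. The groups overlapped fully, and the 95% Wilson interval of a single library, 6.85% to 8.43% in control 1 for instance, covers counting error only. The means were 7.06% ± 0.496 (SD, n = 3) in control and 7.11% ± 0.435 (SD, n = 3) in MPA, a difference of 0.0505 percentage points (two-sided exact permutation test, p = 0.8, where 3 against 3 cannot go below 0.1). The sign of this difference turned without control 2, control 3 or MPA 2, within -0.174 to 0.321 percentage points over the libraries left out in turn.

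At least 1 read was seen for 141, 121 and 114 new exonic circRNAs in control and for 133, 136 and 171 in MPA. MPA 3, the library with most reads, had the highest count, and the groups overlapped. The means were 125 ± 14.0 and 147 ± 21.1 (SD, n = 3 each; exact permutation test, p = 0.3). With every library thinned to 3740 reads, the expected numbers were 124 ± 11.6 and 138 ± 13.4 (exact permutation test, p = 0.3).

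**Figure D1:**
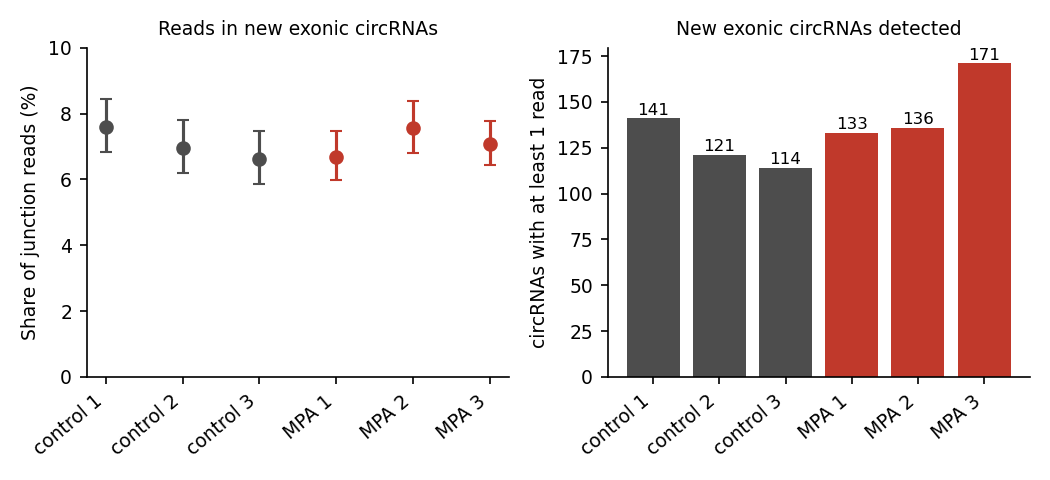
Left, share of each library's junction reads in new exonic circRNAs (%), with 95% Wilson intervals. Right, number of new exonic circRNAs with at least 1 read. Control is grey and MPA is red. The shares lie between 6.63% and 7.60% with overlapping intervals, and MPA 3 has the highest number detected, 171.

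Most new exonic circRNAs were seen in a single library. Of the 661, 568 (85.9%) were read in 1 library, 61 in 2, 16 in 3, 4 in 4, 10 in 5 and 2 in all 6. Of the known exonic circRNAs, 39.2% were read in 1 library and 6.84% in all 6. Exactly 2 reads over all libraries were behind 459 new exonic circRNAs (69.4%) and 30.3% of the known ones. Every circRNA in the table has at least 2 reads in at least 1 library, so one read in a single library enters only with 2 or more reads there. New exonic circRNAs read in MPA libraries alone numbered 327 (49.5%), those in control libraries alone 262 (39.6%) and those in both groups 72 (10.9%). For known ones the shares were 28.4%, 21.5% and 50.1%, and for circRNAs of the other classes 41.9%, 32.5% and 25.6%. Each MPA library held more junction reads (4339 to 5454) than any control library (3740 to 4316), and these numbers were not adjusted for depth.

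**Figure D2:**
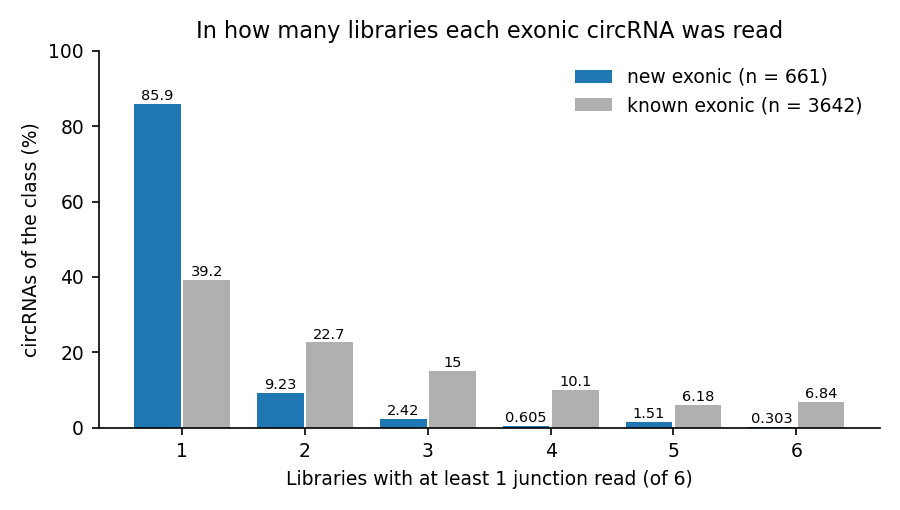
Percentage of new (blue, n = 661) and known (grey, n = 3642) exonic circRNAs by the number of the 6 libraries in which they had at least 1 junction read. The new class stands at 85.9% in a single library, against 39.2% of the known class.

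The classes were then compared within each library, where both share the depth. A detected new exonic circRNA had on average 2.26 reads and a known one 2.53, a mean difference of -0.265 ± 0.113 reads (SD over 6 libraries). The new class was lower in 6 of 6 libraries (two-sided exact sign permutation test over libraries, p = 0.03125, the smallest that 6 libraries allow). Over the 7 measures compared in this way, all of which reached this smallest p, the Benjamini-Hochberg adjusted p was also 0.03125. Of the circRNAs detected in a library, 19.0% of the new class and 65.7% of the known class were also read in another library of the same group, a difference of -46.8 ± 2.94 percentage points (SD, 6 of 6 libraries; exact permutation, p = 0.03125). With both classes limited to circRNAs with exactly 2 reads in the library, the shares were 9.33% and 48.4% (6 of 6 libraries; exact permutation, p = 0.03125). A single read was behind 12.6% of new and 33.2% of known detections (6 of 6 libraries; exact permutation, p = 0.03125), a measure that the listing minimum of 2 reads bears on directly. The libraries read many of the same known circRNAs, so the 6 differences are not independent draws of circRNAs. A ring read in 2 libraries of a group counts in both, so the shares read again depend on each other. Exons, length, introns and sites, compared below, are fixed for each ring, so there the libraries differ only in which rings they read. The p-values therefore do not measure how the classes would differ in other circRNAs.

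By annotation, new exonic circRNAs spanned more exons than known ones. Exon numbers throughout are predicted, since junction reads do not show the inner exons of a ring. Every exon of the matched transcript between both sites was taken as kept. The exon makeup was found for 623 of 661 new (94.3%) and for 96.3% of known exonic circRNAs. Over the classes, the median was 5 exons in the new and 4 in the known. At least 6 exons were held by 299 new circRNAs (48.0%) and 27.7% of the known, and at least 10 exons by 130 (20.9%) and 6.78%. Rings of 1 exon were 12 (1.93%) and 4.67%. Within libraries, the mean was 6.58 exons in new and 4.42 in known exonic circRNAs, a difference of 2.16 ± 0.389 (SD, higher in 6 of 6 libraries; exact permutation, p = 0.03125). It was 1.63 exons among rings of hosts that gave both classes, and 1.98 exons among rings with exactly 2 reads over all libraries, higher in 6 of 6 libraries each time.

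New rings were also longer by the predicted lengths that the authors' table gives. The median was 756 bases in the new class, with quartiles of 441 and 1317, and 525 bases in the known class. Bases per exon had medians of 134.5 and 131. Within libraries the mean length was 1061 bases in new and 847 in known exonic circRNAs, a difference of 214 ± 55.0 bases (SD, 6 of 6 libraries; exact permutation, p = 0.03125). Among rings with exactly 2 reads the difference of means was 167 ± 299 bases, and new rings were longer in 4 of 6 libraries (exact permutation, p = 0.219). The difference of medians there was 249 ± 95.6 bases (6 of 6 libraries, exact permutation, p = 0.03125). In control 1 and MPA 2, where the known mean was higher, it was 1243 and 1253 bases beside known medians of 528 and 548. The longest predicted length was 83160 bases in the known class and 6323 in the new.

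The introns beside the new rings were shorter. The longer of both flanking introns had a median of 7073.5 bases over new rings and 11152.5 over known rings. Within libraries the medians averaged 7517 and 13155 bases, a difference of -5639 ± 994 (SD, lower in 6 of 6 libraries; exact permutation, p = 0.03125), and the shorter of both introns averaged 2382 and 4860 bases. Among rings of hosts with both classes the difference was -3830 bases (6 of 6 libraries). Among rings with exactly 2 reads it was -1807 ± 1576 bases, lower in 5 of 6 libraries (exact permutation, p = 0.0625).

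**Figure D3:**
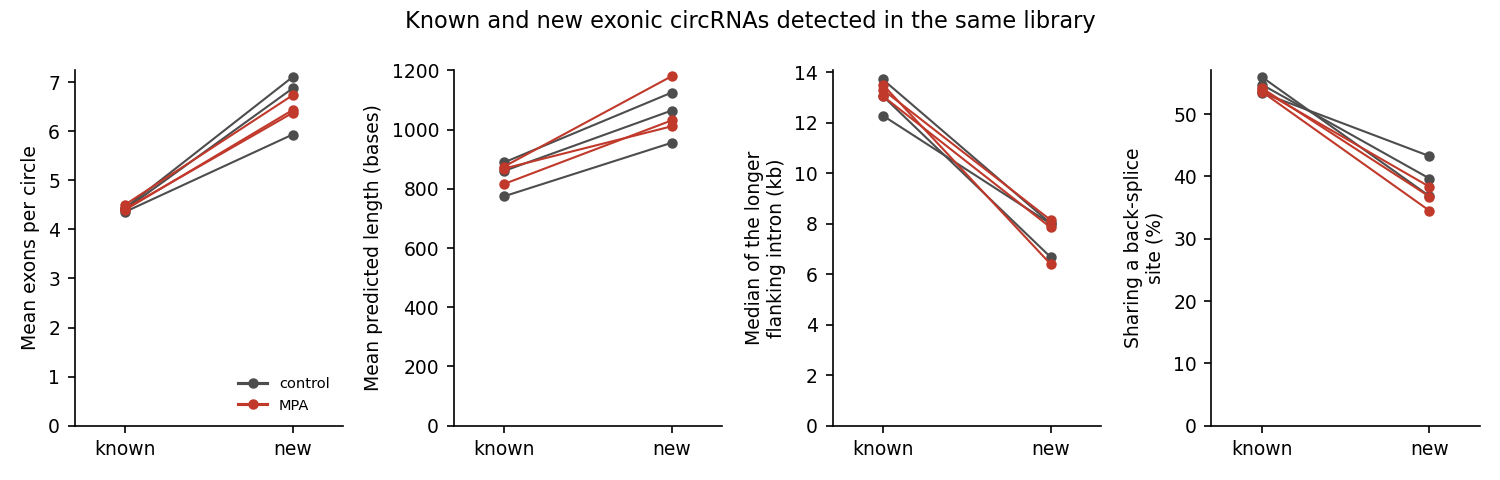
Known and new exonic circRNAs detected in the same library, joined by a line for each of the 3 control (grey) and 3 MPA (red) libraries. The panels give the mean exons per ring, the mean predicted length in bases, the median of the longer flanking intron in kb and the percentage sharing a back-splice site with another listed circRNA. Exons average 6.58 in new and 4.42 in known rings, and all lines of a panel run in 1 direction.

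The second exon was the first of the ring in 160 new (25.7%) and 30.9% of known rings, and exon 1 was held by 2 new and 6 known rings. Rings lay wholly within coding sequence in 524 new (84.1%) and 83.1% of known cases, and of those, 195 (37.2%) and 36.2% had a length divisible by 3. These shares were not tested.

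New rings shared a splice site with other rings less often than known rings did. Sites and ends were compared with the 3642 known exonic circRNAs listed here, and the databases themselves were not searched. Neither site was part of a known exonic circRNA in 501 of 661 (75.8%), the acceptor alone was in 97 (14.7%), the donor alone in 54 (8.17%), and both in 9 (1.36%). None had both ends within 50 bases of the ends of a known ring. Within libraries, 38.2% of new and 54.3% of known exonic circRNAs shared a site with another listed circRNA, a difference of -16.1 ± 3.36 percentage points (SD, lower in 6 of 6 libraries; exact permutation, p = 0.03125), and it was -9.63 among rings with exactly 2 reads. The host also gave a known exonic circRNA for 362 new rings (54.8%), over 288 hosts, whereas 265 hosts gave new exonic rings alone. One new ring was found in 473 hosts, 2 in 63, 3 in 9 and 4 or more in 8.

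The 9 rings with both sites known joined an acceptor and a donor that were seen in known rings, but not with each other. ZDHHC20, a palmitoyltransferase, gave a ring of exons 2 to 11 (chr13:21955573-21999817, 939 bases) with 2, 0 and 3 control and 0, 1 and 0 MPA reads. MCM8, a helicase of homologous recombination, gave 1 of 9 exons (chr20:5932657-5948671) with 0, 0 and 2 control and 1, 2 and 0 MPA reads. The others were in BAGE2, UTRN, MTHFD1L, SSH2, USP25, BRWD1 and KMT2E. Apart from the 15 reads of the BAGE2 ring, these 9 had between 2 and 6 reads each.

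For single circRNAs, MPA was compared with control by edgeR's quasi-likelihood test over every circRNA with a mean of at least 2 reads. Of 382 tested, 0 (0%) passed a false discovery rate (FDR) of 0.05, 12 (3.14%) had an unadjusted p under 0.05, and DESeq2 gave 0 and 7. Only 9 of the 661 new exonic circRNAs (1.36%, against 9.77% of the known) reached this mean; the other 652 were below it. Of these 9, 0 passed the FDR and 1 had an unadjusted p under 0.05. Their log2 fold changes were above 0 in 3 and below 0 in 6, with a median of -0.69 beside 0.07 over all tested. The edgeR adjusted p was 0.994 for each of the 9.

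The most read new exonic circRNA came from PSME4, which encodes the proteasome activator PA200. The ring (chr2:54158972-54164677 on hg19, minus strand, 771 bases) holds exons 5 to 10 of 47, and its host gave no known circRNA. Of its 103 reads, control libraries had 21, 8 and 16, and MPA libraries had 16, 26 and 16. It was read in every library, the groups overlapped, and it was sixth among all 4814 circRNAs by reads. The means were 15.0 ± 6.56 and 19.3 ± 5.77 reads (SD, n = 3 each), and the log2 fold change was 0.21 (SE 0.386; 95% interval -0.55 to 0.96; edgeR adjusted p = 0.994). The direction turned, to -0.14 without control 2 and to -0.10 without MPA 2.

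**Figure D4:**
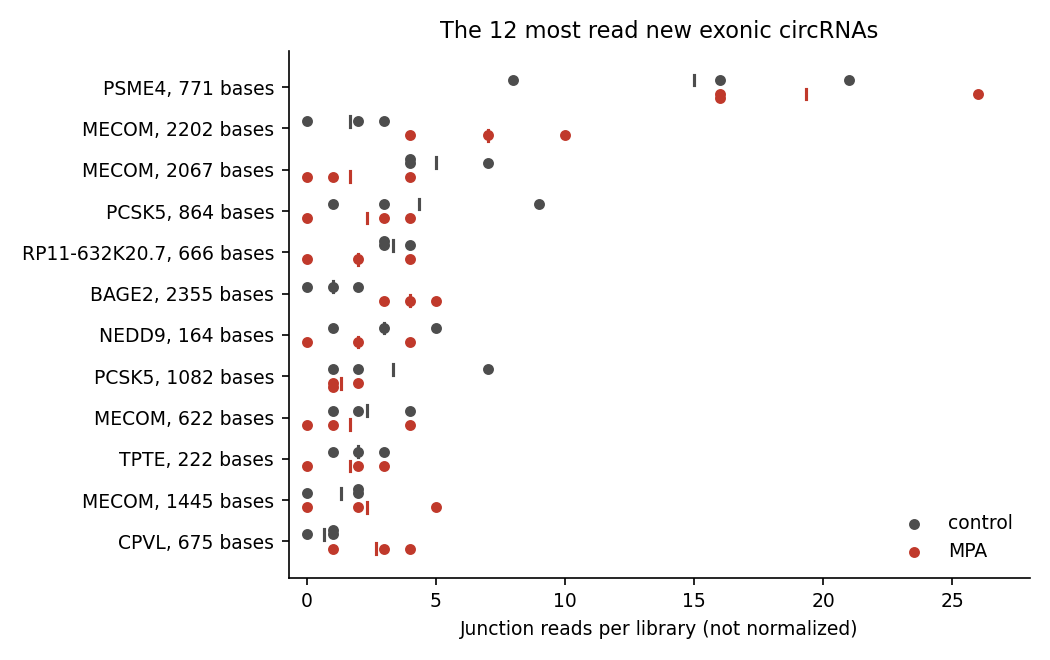
Junction reads per library, not normalized, of the 12 most read new exonic circRNAs, named by host and predicted length. Points are control (grey) and MPA (red) libraries, and vertical ticks are group means. PSME4 lies between 8 and 26 reads. The 2202-base MECOM ring is the second most read, with control points at 0 to 3 and MPA points at 4 to 10.

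MECOM, which encodes the zinc finger transcription factor EVI1 and its longer MDS1-EVI1 form, was the host with most new exonic rings: 6, with 74 reads and no known exonic ring. The ring of exons 3 to 9 (chr3:168830575-168861620, minus strand, 2202 bases) was read 0, 3 and 2 times in control and 10, 4 and 7 times in MPA. Every MPA count lay above every control count. How many of the 382 tested circRNAs separate in this way was not counted. The log2 fold change of this MECOM ring was 1.83 (SE 0.797; 95% interval 0.27 to 3.39; edgeR adjusted p = 0.994), and it was the ring with an unadjusted p under 0.05. With libraries left out in turn the value ran from 1.20, without control 1, to 2.48.

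The ring of exons 4 to 9 (chr3:168830575-168849319, 2067 bases) ends at the same donor but starts an exon later. Its control libraries had 7, 4 and 4 reads and its MPA libraries 1, 0 and 4. The groups met at 4 reads, and the log2 fold change was -1.69 (SE 0.926; edgeR adjusted p = 0.994; -3.12 without MPA 3 and up to -1.17 with other libraries left out). Of the reads of both rings, the ring with exon 3 held 0%, 42.9% and 33.3% in control and 90.9%, 100% and 63.6% in MPA. The means were 25.4% ± 22.5 and 84.8% ± 18.9 (SD, n = 3 each; exact permutation test, p = 0.1, the smallest that 3 against 3 can give). This pair was singled out after its values were seen, and any pair with separated groups gets this p, so it gives no support. Each ring of the pair reached the mean of 2 reads only through the group where it was higher. Among 66 pairs of exonic circRNAs that share a site, each with a mean of at least 2 reads and with reads of the pair in every library, the groups failed to overlap in 11 (16.7%), so separation alone was not rare.

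The other MECOM rings had fewer reads. Exons 4 to 7 (chr3:168838844-168849319, 622 bases) had 4, 1 and 2 control and 1, 0 and 4 MPA reads, with a log2 fold change of -0.63 (SE 1.20; -1.03 without control 2 and -0.11 without MPA 2). Exons 8 to 9 (chr3:168830575-168834527, 1445 bases) had 0, 2 and 2 control and 2, 0 and 5 MPA reads. A ring of exons 4 to 8 (chr3:168833171-168849319, 1979 bases) and one that reached past exon 9 (chr3:168825714-168849319, 2094 bases) were read in MPA alone, with 3 and 2 reads. Summed over the 6 rings, the control libraries had 11, 10 and 10 MECOM reads and the MPA libraries 14, 6 and 23. The sums overlapped, and the log2 fold change was 0.19 (SE 0.424; edgeR adjusted p = 0.981), turning to -0.20 without MPA 3.

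**Figure D5:**
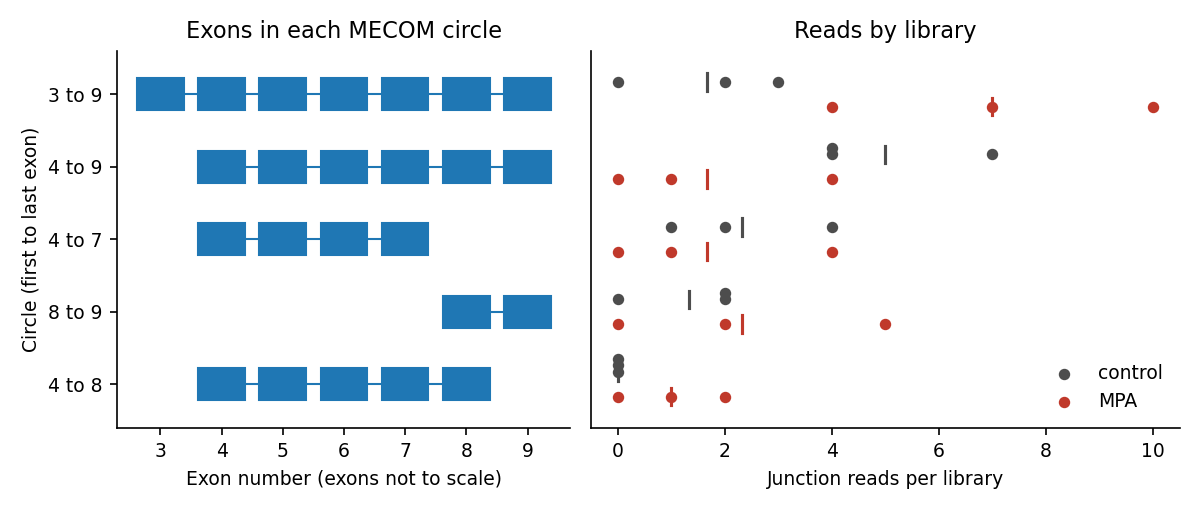
Left, the predicted exons of 5 of the 6 MECOM rings, with exon numbers of the GENCODE transcript and exons not to scale. Right, junction reads per library of the same rings, control in grey and MPA in red, with ticks at the group means. The ring of exons 3 to 9 had 0 to 3 control and 4 to 10 MPA reads, and the ring of exons 4 to 9 had 4 to 7 control and 0 to 4 MPA reads.

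PCSK5, a proprotein convertase that cleaves secreted precursors, gave 3 new rings from a single acceptor at exon 30. The ring of exons 30 to 33 (chr9:78936338-78947526, plus strand, 864 bases) had 9, 1 and 3 control and 0, 3 and 4 MPA reads. Its log2 fold change of -1.02 (SE 0.900) was -0.06 without control 1 and -1.55 without MPA 3. The ring of exons 30 to 34 (chr9:78936338-78953363, 1082 bases) was read in every library, with 1, 2 and 7 control and 2, 1 and 1 MPA reads, and a log2 fold change of -1.41 (SE 1.06). The remaining ring, of exons 30 to 36, had 2 reads. The sums were 10, 3 and 10 in control and 2, 4 and 7 in MPA, which overlapped, and the log2 fold change was -1.08 (SE 0.635; edgeR adjusted p = 0.981). The only known PCSK5 ring, far upstream (chr9:78682871-78722267), had no control read and 1, 0 and 5 MPA reads.

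NEDD9, a scaffold protein of focal adhesions, gave a ring of a single exon, exon 2 (chr6:11306225-11306388, minus strand, 164 bases), after an intron of 75983 bases. It had 5, 1 and 3 control and 2, 4 and 0 MPA reads, and the groups overlapped, with a log2 fold change of -0.69 (SE 1.01; -1.63 without MPA 2 and -0.10 without MPA 3). CPVL, a serine carboxypeptidase, gave a ring of exons 6 to 11 (chr7:29103677-29132318, 675 bases) with 0, 1 and 1 control and 3, 1 and 4 MPA reads. The groups met at 1 read, and its mean was under the minimum for testing.

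Several of the more read rings lie in loci with near-identical copies, where reads can be placed on the wrong copy, so their counts and even their hosts are uncertain. BAGE2, of the B melanoma antigen family, gave 4 new rings with 32 reads. The most read (chr21:11011438-11058323, minus strand, 2355 bases) had 0, 1 and 2 control and 4, 3 and 5 MPA reads. The groups did not overlap, but the log2 fold change of 1.71 (SE 1.09; 1.10 without control 1) had an edgeR adjusted p of 0.994. How many tested circRNAs separate in this way was not counted, and this ring reached the mean of 2 reads only through its MPA reads. The BAGE2 sum was 0, 7 and 4 in control and 13, 3 and 5 in MPA, which overlapped (log2 fold change 0.66, SE 0.697; -0.20 without MPA 1 and 1.48 without control 2). TPTE, a testis phosphatase related to tensin, gave 4 rings with 22 reads, the most read (chr21:10959741-10973776) with 3, 2 and 1 control and 0, 3 and 2 MPA reads. RP11-632K20.7 (chr15:32819014-32825569, 666 bases) had 3, 4 and 3 control and 0, 4 and 2 MPA reads (log2 fold change -0.87, SE 0.992; -1.82 without MPA 2 and -0.42 without MPA 1). Without BAGE2, TPTE, RP11-632K20.7 and further hosts in such loci, the new class took 6.78% ± 0.533 of reads in control and 6.77% ± 0.405 in MPA (SD, n = 3 each). Known BAGE3 rings, which share an acceptor with the most read BAGE2 ring, stayed in the total.

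UTRN, which encodes utrophin, a link between actin and the membrane, gave 5 new rings beside 12 known ones with 89 reads. The most read joins exons 28 to 38 (chr6:144808684-144838084, plus strand, 1719 bases) and had 1, 0 and 1 control and 1, 0 and 2 MPA reads. Its acceptor is also that of 4 known UTRN rings. The other 4 held 8, 9, 13 and 16 exons with 2 or 3 reads each. The UTRN sums were 3, 2 and 1 in control and 2, 3 and 5 in MPA, which overlapped (log2 fold change 0.44, SE 1.01; 0.16 without control 3 and 0.82 without control 1).

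Summing the new rings of each host brought 8 hosts past the minimum. Of 544 host sums tested, 0 (0%) passed the FDR in edgeR and 19 (3.49%) had an unadjusted p under 0.05, while DESeq2 gave 0 and 10. Of the 8 sums of new rings, 0 passed either threshold, 4 lay above 0 and 4 below, and each edgeR adjusted p was 0.981.

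Rings read in 1 group alone had at most 6 reads. In MPA alone, ZMYM2, a zinc finger protein that binds SUMO, had 4, 2 and 0 reads in a ring of exons 2 to 4 (chr13:20534098-20568059), and PADI3, PLEKHA5, MIB1 and a BAGE2 ring had 4 reads each. In control alone, M1AP had 0, 3 and 2 reads, SEC24A, a cargo subunit of the COPII coat, had 0, 5 and 0, and CEP85, C11orf65 and PPP4R1 had 4 each. Of these 10, only the ZMYM2, PLEKHA5, M1AP and PPP4R1 rings were read in more than 1 library. Ties were broken by chromosome and start, so equal rings went unnamed. Among them, SNX5 (4, 0 and 0) and EXOC2 (2, 2 and 0) also had 4 reads in control alone. The shortest rings were 150 bases in ALDH1L1 and 151 bases in MBOAT1, and the longest 6035 bases in HIVEP1 and 6323 bases in ICE1, each with 2 reads in 1 library.

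Hosts were sorted into 10 lists by function, which took in 193 of the new rings. The list of cell cycle, centrosome and DNA repair genes was the most frequent, with 45 new rings from 35 hosts, 6.81% of the new class against 4.50% of the known. It was also the largest of these 10 lists, with 143 genes where the others held 47 to 133. Its new rings had 69 reads in control and 43 in MPA, between 0.427% and 0.765% of reads in the control libraries and between 0.157% and 0.530% in the MPA libraries, which overlapped. TP53BP1, a DNA break repair factor, had 0, 2 and 2 control and 0, 0 and 2 MPA reads. For MCM8 the reads were 0, 0 and 2 and then 1, 2 and 0. KIF14, a mitotic kinesin, had 0, 0 and 3 and then 1, 0 and 0. Ubiquitin and protein turnover held 33 rings (4.99% against 5.46%), of which PSME4 carried 103 of 175 reads. It was the only list with a ring tested, and 0 passed the FDR.

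Adhesion and cytoskeleton and vesicle traffic each held 24 rings (3.63%, against 3.35% and 3.73% of the known). Chromatin regulators and RNA processing each held 18 (2.72%, against 3.87% and 2.83%). A KMT2A ring of 7 exons and 5090 bases had 1, 0 and 0 control and 3, 0 and 0 MPA reads. Kinase and growth factor signalling held 12 (1.82% against 3.19%), nuclear pore and transport 12 (1.82% against 2.55%) and mitochondria and metabolism 7 (1.06% against 2.11%). RANBP17, a nuclear export receptor of the importin beta family, had 1, 0 and 1 control and 0, 2 and 2 MPA reads. In the list of progestin and steroid response, 1 new ring was found, of CRISPLD2, a gene of the decidual stroma, with 2 reads in MPA 1. Among 10 epithelial marker genes EPCAM gave a new ring with 2 reads, and none of 10 markers of other cell types gave any, while the known class had 1 ring with 3 reads in each marker list. These shares of the lists describe the classes and were not tested.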

How the data were processed

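Per the file headers, the deposited table holds unnormalized read counts across back-splice junctions, 1 column for each of the 6 libraries, and a predicted length; 6 columns of log CPM were not used. Per the submitters' processing notes, CASAVA 1.8, BWA and hg19 were used, with no role stated; the calling tool was not given in the sources used here. All coordinates come from the table (hg19), with starts made 1-based. Read depth beyond junction reads is unknown.

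The members and lists were chosen with earlier results of these data known. Exon makeup was matched to GENCODE 29 transcripts (GRCh38) of the host with equal genomic span and equal spliced length, with no coordinate conversion; of 553 host symbols 545 matched RefSeq names. edgeR 4.0.16 (R 4.3.3; TMM scaling, robust quasi-likelihood test, Benjamini-Hochberg adjustment) was fitted on all circRNAs, and on sums per host and class, with a mean of at least 2 reads; log2 fold changes are from these fits to the deposited counts. DESeq2 1.42.0 was an alternative. Classes were compared within libraries by exact sign permutation (scipy 1.17.1); the exon and intron measures and the comparisons at exactly 2 reads over all libraries were added after seeing the data. The code was tested on simulated counts. Rings named are the 10 most read, those with the smallest p in each direction, those read in all 6 libraries, the 3 hosts with most rings, the 5 most read in each group alone, the 2 shortest and 2 longest, up to 3 per list, and host sums with the smallest p; MCM8, ZDHHC20, CPVL and the MECOM pair were also named after their values were seen. All 15 pairs of libraries differed by more than sampling noise.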

Additional observations from a re-analysis of the deposited data

How the results depend on the processing

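The difference in the share of reads, MPA minus control, was 0.0505 percentage points. It turned to -0.00981 without the 10 most abundant circRNAs and to -0.140 over circRNAs with at least 2 reads in the library. Without BAGE2, TPTE and the other multi-copy hosts left out above, but with BAGE3 kept, it was -0.00207. It ran from -0.174 to 0.321 with libraries left out in turn, and the cause was not tested. The difference in new rings detected ran from 9.17 to 29.2. With libraries left out in turn, the differences of new minus known rings kept their direction: -0.294 to -0.227 reads, -21.5 to -19.9 points with 1 read, 196 to 228 bases, -17.2 to -15.5 points sharing a site, -47.5 to -45.9 points read again, 2.05 to 2.27 exons and -5909 to -5346 bases of intron, each with a smallest possible p of 0.0625. Among rings with exactly 2 reads the difference was 167 bases in mean length and -1807 bases of intron, neither past the threshold. The number of circRNAs past the FDR ran from 0 to 1, the 1 being a known ring of RAB3IP without control 2; host sums stayed at 0. Unadjusted p-values under 0.05 were 12 of 382 circRNAs, 61 of 1105 at a mean of at least 1 read, 2 of 91 at 5 and 43 of 4814 with no filter. Left-out libraries turned the log2 fold changes of the PSME4 ring (-0.14 and -0.10, range -0.14 to 0.44), and of the sums of PSME4 (-0.20 and -0.21, range -0.21 to 0.41), BAGE2 (-0.20 to 1.48) and MECOM (-0.20 to 0.51).

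Replicate numbers were not used as pairs in the main fits, and whether they pair the libraries was not settled. Same-number correlations of deviations were low, 0.0169 to 0.0931, but 5 of 6 libraries correlated best with their own number. With the replicate block the share differed by 0.0505 points (exact permutation, p = 1) and the rings detected by 21.3 (p = 0.5, exact permutation). This test on 3 pairs cannot go below 0.25. With the block, 0 circRNAs and 0 host sums passed the FDR. At a mean of at least 2 reads 9 new rings were tested, at 1 read 22 and with no filter 661, and 0 passed the FDR each time.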
